A study of Mus musculus with 75 samples.

Results

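The 10 genes described here encode chains of the kidney's basement membranes. They were chosen by name from the 32245 genes of the count table, with earlier results of these data known: the collagen IV genes Col4a1, Col4a2, Col4a3, Col4a4 and Col4a5, the laminin genes Lama5, Lamb1, Lamb2 and Lamc1, and the nidogen gene Nid1. Whole-kidney RNA was sequenced from adult mice of mixed background 3 days after unilateral ureter obstruction (UUO), in which 1 ureter is tied off and the contralateral (CL) kidney serves for comparison. The 75 libraries fell into 12 groups in 3 arms. In the ABTAA arm, C57BL6/J mice or wild types from the breedings received control IgG (8 CL and 8 UUO kidneys) or ABTAA (7 CL and 7 UUO kidneys), an antibody that binds angiopoietin-2 and activates the endothelial receptor TIE2. In the Veptp arm, Veptp iECKO mice (6 CL and 8 UUO kidneys) carried floxed Veptp, the gene of a phosphatase that acts on TIE2, and lost it after tamoxifen through Cdh5-CreERT2, which is active in endothelium. Their controls, Veptp WT (7 CL and 8 UUO kidneys), were littermates with the same Cre and 1 floxed allele that were not induced, so that the deletion and tamoxifen cannot be told apart. In the Pdgfb arm, Pdgfb iKO mice carried floxed Pdgfb and the body-wide Actb-CreERT2 induced with tamoxifen, and their controls, Pdgfb WT, were littermates without Cre (4 CL and 4 UUO kidneys of each). Some Pdgfb WT CL samples were lost, and the study used kidneys of sham-operated Pdgfb WT mice in that group, where no label marks them. Part of those 4 libraries is therefore not from contralateral kidneys. No label ties a CL kidney to the UUO kidney of the same mouse. The number of Veptp WT mice stated for the sequencing is lower than the number of UUO libraries with that label, so it is not certain that each of these came from a separate mouse.

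Basement membranes are thin sheets of matrix under epithelia and endothelia, built from a laminin polymer and a collagen IV network that nidogens and heparan sulfate proteoglycans link. Collagen IV chains assemble into trimers: α1α1α2 in nearly all basement membranes, and α3α4α5 in the mature glomerular basement membrane and parts of the tubule, where defects in these chains cause Alport syndrome. The laminin of the mature glomerular basement membrane, laminin-521, joins the chains α5, β2 and γ1, and laminin-511, with β1 in place of β2, prevails in tubules and in the developing glomerulus. In bulk kidney RNA, fewer cells of a type and less RNA in each such cell cannot be told apart.

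Col4a1 and Col4a2 lie head to head on chromosome 8, and in mm10 Col4a1 (chr8:11198423-11312826, minus strand) and Col4a2 (chr8:11312805-11449287, plus strand) overlap by 22 bases of their first exons. Their windows from 250 bases before to 50 after the start, from RefSeq (GRCm38.p6), are shown because both genes share this stretch and moved together in these kidneys. Lower case marks the window and capitals mark the 78 bases that both windows hold, each read 5′ to 3′ on its own gene's strand.
Col4a1, chr8:11312777-11313076, minus strand: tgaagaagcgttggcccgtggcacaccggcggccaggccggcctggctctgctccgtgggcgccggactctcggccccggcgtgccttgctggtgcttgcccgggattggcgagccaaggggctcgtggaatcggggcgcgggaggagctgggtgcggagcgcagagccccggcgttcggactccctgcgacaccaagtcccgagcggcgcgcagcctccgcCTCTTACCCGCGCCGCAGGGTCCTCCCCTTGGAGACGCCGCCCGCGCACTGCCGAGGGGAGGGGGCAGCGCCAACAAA
Col4a2, chr8:11312555-11312854, plus strand: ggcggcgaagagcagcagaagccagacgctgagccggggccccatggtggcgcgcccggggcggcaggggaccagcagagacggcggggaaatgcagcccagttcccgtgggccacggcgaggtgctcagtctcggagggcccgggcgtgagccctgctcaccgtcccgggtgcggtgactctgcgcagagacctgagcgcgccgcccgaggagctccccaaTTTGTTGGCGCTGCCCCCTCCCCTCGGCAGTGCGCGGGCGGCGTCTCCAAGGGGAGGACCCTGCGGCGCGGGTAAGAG
The capitals of one window are the reverse complement of those of the other. The windows held 37 (Col4a1) and 33 (Col4a2) CpG dinucleotides, against a median of 7 over all promoters in the RefSeq table. Of the 10 genes, 8 had a window in that table. Searched on both strands, with matches to different motifs allowed to share bases, the GC box core GGGCGG was found in 6 of the 8, against 35.7% of all 32851 promoters, the CCAAT box in 5 of the 8, against 37.4%, the TATA motif TATAA in 2, those of Lamb2 and Nid1, against 24.9%, and the AP-1 motif TGANTCA in none, against 7.81%. Col4a3 (chr1:82586921-82722059, plus strand) and Col4a4 (chr1:82448423-82586849, minus strand) form a second such pair, with starts 72 bases apart. The other members lie alone or, for Col4a5, next to Col4a6 (starts 1309 bases apart): Col4a5 at chrX:141475385-141689234 and Lamb1 at chr12:31265234-31329644, Lamb2 at chr9:108479736-108490530 and Nid1 at chr13:13437551-13512269 on the plus strand, and Lama5 at chr2:180176373-180225859 and Lamc1 at chr1:153218922-153332786 on the minus strand.

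Levels are CPM, counts scaled to a common library size, after TMM scaling over all libraries, and folds are log2 values from edgeR's quasi-likelihood test with p adjusted by Benjamini-Hochberg over all genes of the arm. An adjusted p under 0.05 is called a change, and all 10 members passed the filter on low counts in each arm. Comparisons within an arm share libraries, and p-values measure the spread between these libraries. Libraries held 172827 to 2341800 counts, and the members had between 1 and 1096 counts in a library, so that low members such as Col4a5 were measured with wide error. Library names came in 2 forms, plain (45) and split by the sign "_" (30), which differed in 39.7% of genes in the ABTAA arm and 62.4% in the Veptp arm and in the share of counts on the rRNA-like genes Gm42418 and AY036118 (7.32% to 18.7% plain and 3.89% to 5.91% split in the ABTAA arm, 9.18% to 21.8% and 0.325% to 0.778% in the Veptp arm), and all libraries of the Pdgfb arm had the first form. In 24 libraries Xist stood together with Y-linked genes, at 10 counts or more of each. Among them were all 4 Pdgfb iKO UUO and 2 of the 4 Pdgfb WT UUO libraries. Pdgfb WT CL replicates 3 and 4 were among them too, but no Pdgfb iKO CL library was. Without these libraries no comparison with Pdgfb iKO UUO kidneys could be fitted. Ptprb, the gene of VEPTP, had 31.3 ± 17.7 CPM (SD, n = 8) in Veptp iECKO UUO and 48.2 ± 26.3 CPM (SD, n = 8) in Veptp WT UUO kidneys. Pdgfb was at 33.1 to 40.9 CPM in the UUO libraries labelled Pdgfb iKO and 43.6 to 57.4 CPM in Pdgfb WT, but in CL kidneys at 16.8 to 25.1 CPM against 4.53 to 20.1 CPM, the reverse order. The deleted part of the gene is not given in the sources used here. These counts may therefore not check the label. The study itself reported that Pdgfb expression was lower in Pdgfb iKO mice, in the obstructed and the contralateral kidney. Havcr1, a marker of injured proximal tubule, was at 228 CPM in CL replicate 2 of Veptp iECKO, against 4.19 to 69.7 CPM in the other CL libraries and 281 to 2016 CPM in UUO kidneys.

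**Figure D1:**
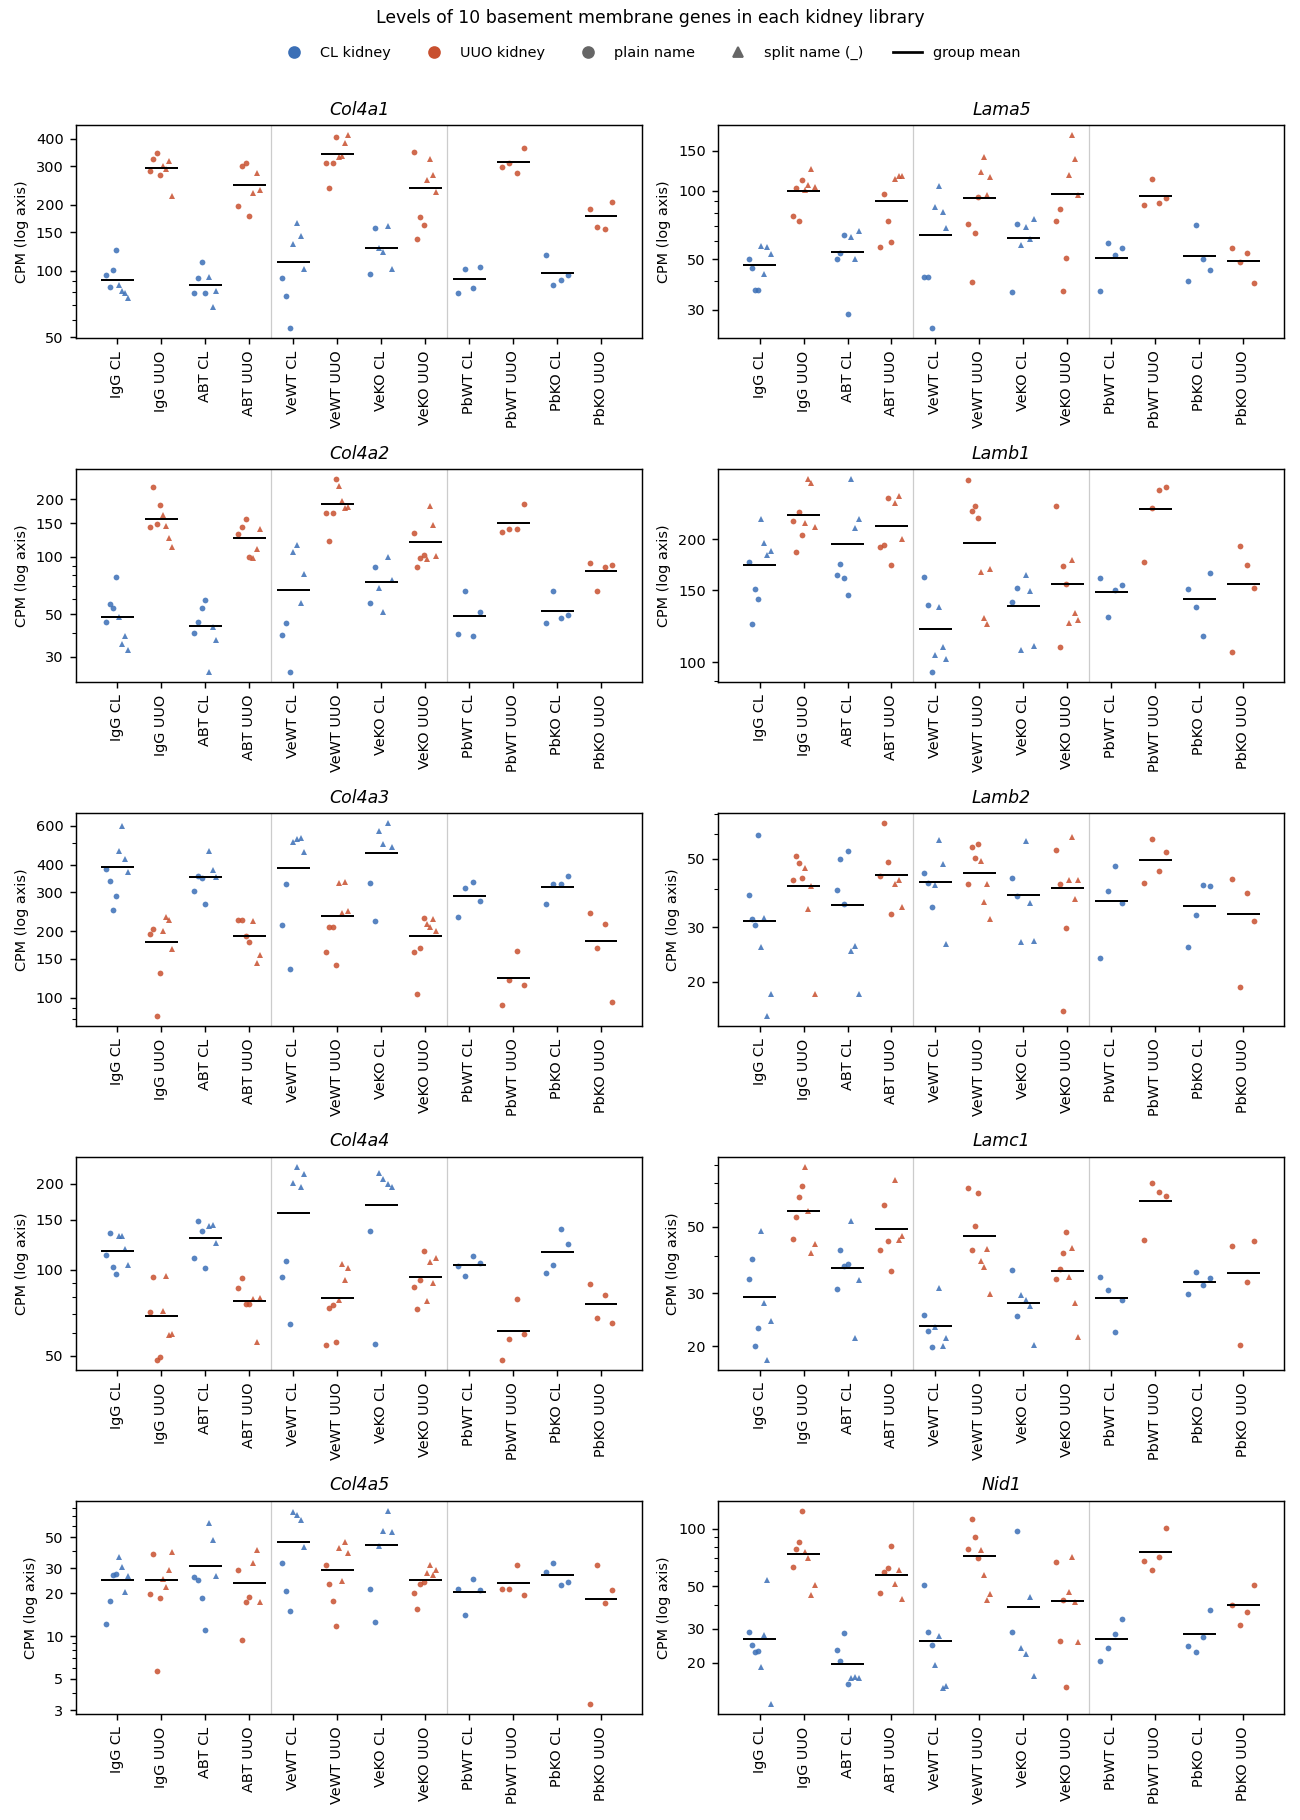
CPM (log axis) of each member in every library, with CL kidneys in blue, UUO kidneys in orange, plain library names as circles and split ones as triangles, and the group mean as a line; IgG and ABT are the antibody groups, VeWT and VeKO Veptp WT and iECKO, PbWT and PbKO Pdgfb WT and iKO. Col4a1 ran from 75.1 to 124 CPM in IgG CL and from 219 to 344 CPM in IgG UUO kidneys, while Col4a3 ran from 250 to 600.3 and from 82.5 to 231 CPM.

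The obstructed kidneys of IgG-treated mice showed opposite movement within collagen IV. Of the 10 members 6 were higher in UUO than in CL kidneys, against 16.3% of the 9579 genes tested, and 2 were lower, against 18.2%. These shares depend on the scaling: without TMM the median log2 fold change over the genes tested was 0.229 in place of 0.018, and the split went from 1561 genes higher and 1740 lower to 2492 and 1087, with 7 members higher and 2 lower. The chains of the α1α1α2 trimer, Lama5, Lamb1, Lamc1 and Nid1 rose, Col4a3 and Col4a4 fell, and Col4a5 and Lamb2 did not pass the test. The median log2 fold change of the members was 0.67, against 0.018 over all genes tested.

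Col4a1, which encodes the chain present in duplicate in the α1α1α2 trimer, had a lowest, median and highest level of 75.1, 85.7 and 124 CPM in the 8 IgG CL kidneys and of 219, 297 and 344 CPM in the 8 IgG UUO kidneys. Every UUO library lay above every CL library (log2 fold change 1.73, SE 0.14, adjusted p = 5.99e-12). Col4a2, the partner chain in that trimer, went from 32.5, 47.0 and 78.2 CPM to 113, 146 and 232 CPM. Its groups were also apart, and it rose by 1.74 ± 0.18 on the log2 scale (adjusted p = 3.12e-09). The pair rose alike with ABTAA: Col4a1 ran from 68.8 to 110 CPM in CL and from 178 to 311 CPM in UUO kidneys (log2 fold change 1.54 ± 0.14), and Col4a2 from 25.1 to 59.6 CPM and from 99.1 to 158 CPM (1.56 ± 0.19), again without overlap. In Veptp WT mice Col4a1 went from 54.8, 102 and 165 CPM in CL to 239, 331 and 416 CPM in UUO kidneys (1.64 ± 0.21) and Col4a2 from 24.9, 57.5 and 115 CPM to 121, 181 and 255 CPM (1.48 ± 0.24), with no overlap.

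In Pdgfb WT kidneys Col4a1 was at 79.2, 102, 83.2 and 105 CPM in the 4 CL libraries, and the 4 UUO libraries held 297, 311, 278 and 364 CPM. Col4a2 was at 39.6, 65.9, 38.6 and 51.7 CPM in CL and at 134, 140, 139 and 190 CPM in UUO kidneys. Both genes lay higher in every UUO than in every CL library, with log2 fold changes of 1.76 ± 0.15 (adjusted p = 1.18e-09) and 1.63 ± 0.18 (adjusted p = 6.48e-08). The lowest UUO levels of Col4a1 were in Pdgfb iKO and the highest in Veptp WT kidneys: the means with SD were 178 ± 25.5 CPM (n = 4) in Pdgfb iKO, 239 ± 76.4 (n = 8) in Veptp iECKO, 247 ± 51.5 (n = 7) with ABTAA, 294 ± 37.9 (n = 8) with IgG, 312 ± 36.7 (n = 4) in Pdgfb WT and 341 ± 58.6 (n = 8) in Veptp WT. Each step between neighbours in that order was smaller than the larger of their SDs.

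Col4a3, whose chain belongs to the α3α4α5 trimer of the glomerular basement membrane, moved the other way. In IgG-treated mice it had 250, 377 and 600.3 CPM as lowest, median and highest level in CL and 82.5, 198 and 231 CPM in UUO kidneys. No UUO library reached the lowest CL library, and Col4a3 fell by 1.08 on the log2 scale (SE 0.17, adjusted p = 5.96e-06). Col4a4, its partner on chromosome 1 and in the trimer, went from 96.5, 116 and 134 CPM to 48.3, 65.5 and 95.1 CPM, also without overlap (-0.71 ± 0.14, adjusted p = 0.000118). With ABTAA the falls were -0.85 ± 0.18 for Col4a3 and -0.71 ± 0.14 for Col4a4, in Pdgfb WT -1.21 ± 0.20 and -0.74 ± 0.16, and in Veptp WT -0.69 ± 0.24 (adjusted p = 0.0466) and -0.97 ± 0.23 (adjusted p = 0.00332). The call of Col4a4 ended in Veptp WT without TMM (-0.86, adjusted p = 0.0605), in plain names alone (-0.43, adjusted p = 0.308) and without the libraries numbered 3, 4, 7 and 8 (-0.86, adjusted p = 0.0863), and with ABTAA in thinned counts (-0.55, adjusted p = 0.0515) and plain names alone (-0.55, adjusted p = 0.0607).

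Col4a3 shares 563 exon bases with C430014B12Rik on the opposite strand, which has 3509 counts against 19418 for Col4a3, and whether reads were counted by strand is not given in the sources used here. C430014B12Rik had log2 fold changes of -0.98 ± 0.29 in IgG-treated and -1.40 ± 0.29 in Pdgfb WT mice, so the values of Col4a3 are uncertain by the reads that could belong to either gene. The fall of Col4a3 in Veptp WT mice passed the test in 15 of 40 alternatives: 18 of the 29 libraries ended it when left out, namely Veptp WT CL replicates 4 to 7, Veptp WT UUO replicates 1 to 4, 6 and 8, Veptp iECKO CL replicates 3, 4 and 6 and Veptp iECKO UUO replicates 3 and 5 to 8, with values of -0.60 to -0.71 and adjusted p of 0.05 to 0.113. Col4a5, the X-linked chain of the trimer, had 2 to 133 counts a library in the ABTAA and Veptp arms. Its UUO and CL libraries overlapped in all groups, and the log2 fold change was 0.03 ± 0.30 in IgG-treated mice with a 95% interval from -0.59 to 0.65, -0.63 ± 0.30 (adjusted p = 0.154) in Veptp WT and -0.81 (adjusted p = 0.125) in Veptp iECKO mice. In the Veptp arm Col4a5 was 0.93 ± 0.17 higher in split than in plain names. It was called lower in Veptp WT and Veptp iECKO mice with name form in the model (-0.55, adjusted p = 0.0246, and -0.75, adjusted p = 0.0109), in split names alone (-0.70, adjusted p = 0.0225, and -0.97, adjusted p = 0.00375) and with the number as a block (-0.82 in both, adjusted p = 0.00275 and 0.0073), but was at -0.07 and 0.33 in plain names alone (adjusted p = 0.927 and 0.939).

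Marker genes of cell types were read beside these chains. In IgG-treated mice 16.3% of all genes tested were higher in UUO kidneys and 18.2% lower. Podocytes make the α3α4α5 trimer of the mature glomerulus, and of 12 podocyte markers 8 were tested in the ABTAA arm, and in IgG-treated mice 1 was higher and 1 lower, with a median log2 fold change of 0.07. Their summed level was 266 to 510 CPM in IgG CL and 315 to 424 CPM in IgG UUO kidneys. All 9 proximal tubule markers were lower (median -1.27, summed level 13175 to 38061 CPM in CL and 5739 to 10727 CPM in UUO kidneys), as were 6 of 8 distal nephron markers (median -1.55). The 8 fibroblast markers tested were all higher (median 1.86, summed level of the 10 markers 209 to 420 CPM in CL and 1371 to 2079 CPM in UUO kidneys), as were all 7 macrophage markers (median 1.69, 134 to 240 and 432 to 948 CPM). Of 11 endothelial markers 3 were higher and 1 lower (median -0.11). In Pdgfb WT mice 3 of 11 podocyte markers were lower and 0 higher (median 0.19), against 19.4% and 17.9% of genes. With ABTAA 1 of 8 was lower, against 12.5% of genes, and in Pdgfb iKO 1 of 11, against 2.42%, with 0 higher in both. In Veptp WT and iECKO mice 0 of 11 were called, against 10% and 4.47% of genes higher and 8.38% and 3.47% lower. The part of these shifts in the members' levels was not tested.

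**Figure D2:**
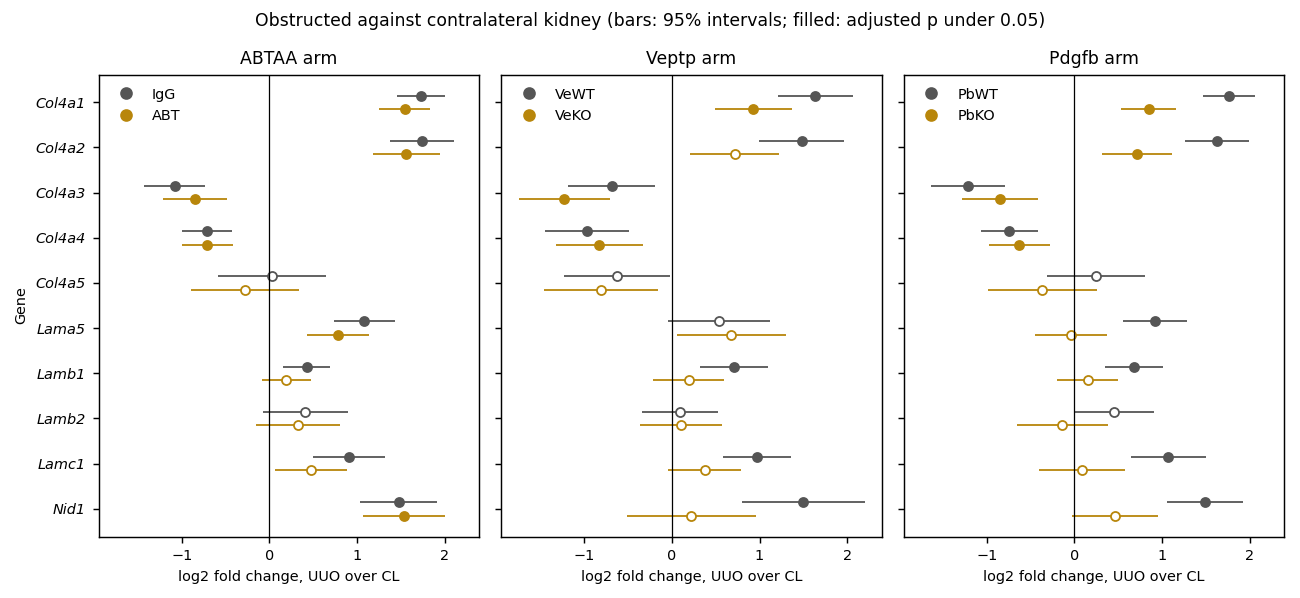
Log2 fold change of each member in UUO over CL kidneys with its 95% interval, in control (grey) and treated or knockout (gold) groups of each arm, filled where adjusted p was under 0.05. Col4a1 ran from 0.85 (PbKO) to 1.76 (PbWT) and Col4a3 from -1.23 (VeKO) to -0.69 (VeWT), and the points of Col4a5 and Lamb2 are open in all groups.

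Within each library the ratio of Col4a1 to Col4a3 counts does not depend on scaling. It is a ratio of counts and not per length, so that only its change between groups is read. The log2 ratio was -2.05 ± 0.57 (SD, n = 8) in IgG CL and 0.76 ± 0.56 (SD, n = 8) in IgG UUO kidneys, a difference of 2.82 (exact 2-sided permutation test, p = 0.000155, the smallest these groups can give, adjusted over 27 ratio comparisons p = 0.0021). All UUO libraries lay above all CL libraries in each of the 6 kinds of mouse. The differences were 2.37 with ABTAA (exact permutation, adjusted p = 0.00393), 2.31 in Veptp WT (exact permutation, adjusted p = 0.0021) and 2.08 in Veptp iECKO (exact permutation, adjusted p = 0.003). With 4 libraries a group, Pdgfb WT (3.00) and Pdgfb iKO (1.75) could give no exact permutation p below 0.0286, which both had, and their adjusted p was 0.11. In the UUO kidneys of the Pdgfb arm, the ratio was 1.31 lower in iKO than in WT (exact permutation p = 0.0571, adjusted p = 0.193).

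The ratio of Col4a1 to Col4a2 did not differ past the test in any comparison. The log2 ratio of their counts averaged 0.79 to 1.07 in the 12 groups, and the differences ran from -0.06 to 0.18 (exact permutation, lowest adjusted p = 0.678). Over the 12 group means of log2(CPM + 1), the correlation was 0.994 between Col4a1 and Col4a2 and 0.944 between Col4a3 and Col4a4, against -0.830 between Col4a1 and Col4a3. These points share the count table, its scaling and the 3 arms and are given as a description. Of 10332 genes at a mean of 10 CPM or more, those most like Col4a1 over the same 12 means were Tubb5 (r = 0.993), Litaf (0.991), Col1a1 (0.989), Cx3cr1 (0.987) and Map3k1 (0.987). For Col4a3 they were Ncoa4 (0.982), Scpep1 (0.979), Pkm (0.979), Acox2 (0.975) and Slc22a13 (0.972). For Lamb2 the likeness was lower, with Cdh5 (0.907), Vopp1 (0.907), B4galt4 (0.897), Cavin1 (0.891) and Rps6ka1 (0.885).

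**Figure D3:**
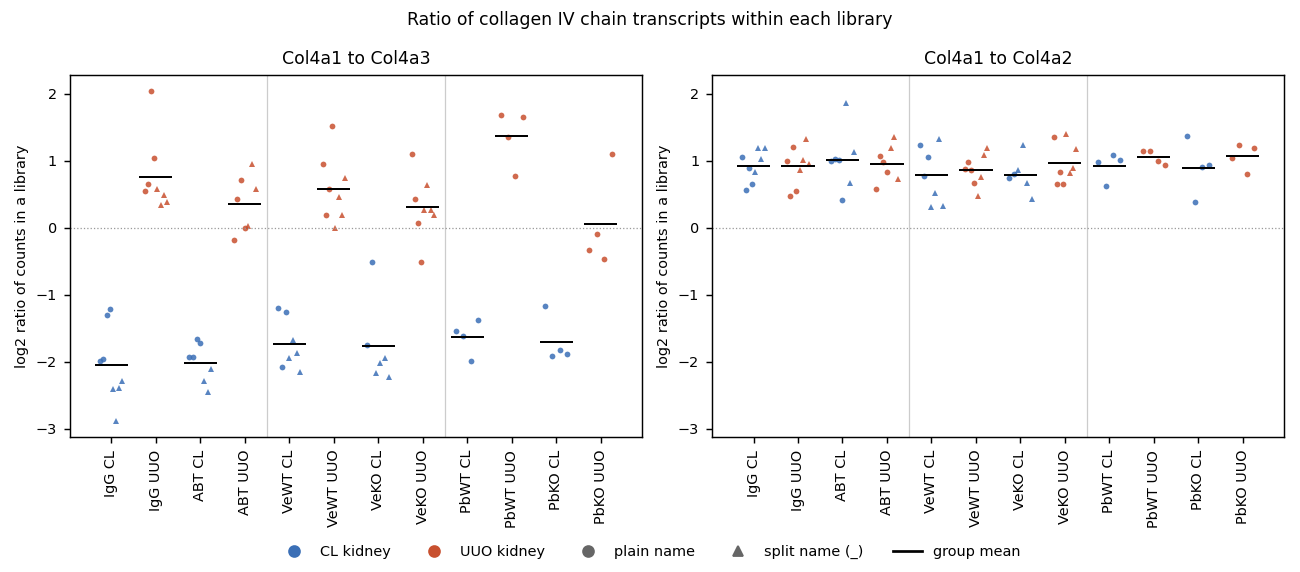
Log2 ratio of Col4a1 to Col4a3 counts (left) and of Col4a1 to Col4a2 counts (right) in every library, with colours, symbols and group names as in the plot of levels and the group mean as a line. The ratio to Col4a3 lay between -2.88 and -0.51 in CL libraries and between -0.51 and 2.04 in UUO libraries, while the ratio to Col4a2 averaged 0.79 to 1.07 in all 12 groups.

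Among the laminins, Lama5, the α chain of both laminin-511 and laminin-521, rose in IgG-treated mice from 36.6, 48.2 and 57.2 CPM (lowest, median and highest) to 73.9, 103 and 125 CPM without overlap (1.09 ± 0.17, adjusted p = 4.85e-06). It also rose with ABTAA (0.78 ± 0.17, but 0.56 with thinned counts at an adjusted p of 0.109 and 0.56 in plain names alone at 0.111) and in Pdgfb WT mice (0.92 ± 0.17), but not past the test in Veptp WT mice (0.54 ± 0.28, adjusted p = 0.215). In that arm Lama5 was 0.92 ± 0.14 higher in split than in plain names, and with name form in the model the value in Veptp WT mice was 0.60 (adjusted p = 0.00906). In Veptp iECKO mice Lama5 was at 0.68 (adjusted p = 0.192), and it was called at 0.80 with name form in the model (adjusted p = 0.00311), at 1.02 in split names alone (adjusted p = 0.000552) and at 1.29 with the number as a block (adjusted p = 8.03e-07), but was at 0.11 in plain names alone (adjusted p = 0.98). Lamc1, the γ chain of both laminins, went in IgG-treated mice from 18.0, 26.1 and 48.2 CPM to 40.8, 55.2 and 79.0 CPM, with 5 of 8 UUO libraries above the CL range (0.91 ± 0.20, adjusted p = 0.000511). Its log2 fold change was 0.97 ± 0.19 in Veptp WT and 1.07 ± 0.21 in Pdgfb WT mice, both called, and 0.48 ± 0.20 with ABTAA (adjusted p = 0.0802, and 0.0372 without ABTAA CL replicate 5). In the 6 ABTAA libraries whose numbers were taken to pair the samples, Lamc1 was called at 0.70 with the number as a block (adjusted p = 0.0346). The calls of Lamc1 ended with the number as a block in Veptp WT (0.43, adjusted p = 0.222), with thinned counts in Pdgfb WT (0.74, adjusted p = 0.0561) and in split names alone in IgG-treated mice (0.78, adjusted p = 0.06).

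Of the β chains, Lamb1 (laminin-511) rose in IgG-treated (0.43 ± 0.13, adjusted p = 0.0111), Veptp WT (0.71 ± 0.19) and Pdgfb WT mice (0.68 ± 0.16). The IgG call ended without the filter on low counts (adjusted p = 0.0958), in split names alone (0.101) and without the libraries that held Xist and Y-linked genes (0.112), and the Veptp WT call ended in split names alone (0.44, adjusted p = 0.0792) and with the number as a block (0.35, adjusted p = 0.084). The IgG groups overlapped, with 124, 179 and 224 CPM in CL and 186, 220 and 280 CPM in UUO kidneys as lowest, median and highest level. Lamb2 (laminin-521) was at 15.4, 31.2 and 59.8 CPM in IgG CL and 18.3, 43.0 and 51.2 CPM in IgG UUO kidneys, or 0.41 ± 0.24 on the log2 scale (adjusted p = 0.193) with a 95% interval from -0.08 to 0.90. It passed the test in no group against CL, but without TMM it was called in IgG-treated (0.61, adjusted p = 0.0333) and Pdgfb WT mice (0.83, adjusted p = 0.00234), and in the 6 numbered ABTAA libraries with and without the block (0.83 and 0.85). The log2 ratio of Lamb1 to Lamb2 counts was 0.56 higher in UUO than in CL kidneys of Veptp WT mice (exact permutation, adjusted p = 0.0445), which ended when 10 of the 15 libraries were left out in turn (Veptp WT CL replicates 2 to 6 and UUO replicates 1 to 4 and 8, exact permutation, highest adjusted p = 0.0989). In the other 8 comparisons the exact permutation test of this ratio gave no adjusted p under 0.05. In CL libraries of the ABTAA arm the ratio was 1.90 (IgG) and 1.85 (ABTAA) in plain names and 3.10 and 3.33 in split names.

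Nid1, which links laminin and collagen IV, went from 12.2, 23.9 and 54.0 CPM in IgG CL to 45.4, 72.8 and 124 CPM in IgG UUO kidneys, and 6 of 8 UUO libraries lay above the CL range. Its log2 fold change was 1.47 ± 0.22 (adjusted p = 1.83e-06) in IgG-treated, 1.54 ± 0.23 in ABTAA-treated, 1.5 ± 0.34 in Veptp WT and 1.49 ± 0.21 in Pdgfb WT mice, all called. In ABTAA-treated mice 4 members were higher, against 12.6% of genes, and 2 lower, against 12.5% (without TMM 5 and 2 members, and 1592 genes higher and 796 lower in place of 1210 and 1197). In Veptp WT mice 5 were higher, against 10% of the 11916 genes tested, and 2 lower, against 8.38% (without TMM 5 and 0 members, and 1383 and 543 genes in place of 1195 and 999). In Pdgfb WT mice 6 were higher, against 17.9% of the 10923 genes tested, and 2 lower, against 19.4%. The Pdgfb WT count is read relative to the scaling: without TMM the median over all genes rose from 0.038 to 0.412 and the split from 1956 genes higher and 2119 lower to 4453 and 1153, and Col4a4 was then at -0.37 (adjusted p = 0.0645). Without the libraries that held Xist and Y-linked genes, 6 members were higher and 1 lower, with 914 of 10859 genes higher and 1127 lower, and Col4a4 was at -0.48 (adjusted p = 0.189).

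Within each form of library name, the values for Col4a1 in IgG-treated mice were 1.68 in plain and 1.81 in split names and for Col4a3 -0.94 and -1.16, all called. With ABTAA they were 1.51 and 1.63 for Col4a1, both called, and -0.60 (adjusted p = 0.0553) and -1.16 for Col4a3, of which the second was called. In Veptp WT mice Col4a1 was at 2.10 and 1.48, both called, and Col4a3 at -0.28 (adjusted p = 0.523) and -0.75 (adjusted p = 0.000566). Each direction was thus the same in both forms.

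Further genes of the pathway were read in IgG-treated mice, where 16.3% of all genes tested were higher in UUO kidneys and 18.2% lower. Of 24 other basement membrane genes 18 were tested, 10 were higher and 1 lower (median 0.67). Sparc, which binds collagen IV, rose by 1.95 ± 0.16, Col18a1, the source of endostatin, by 1.31 ± 0.14, and the heparan sulfate proteoglycan Agrn by 1.19 ± 0.12, all as log2 fold changes. Tinag, a tubular basement membrane antigen, fell by 0.48 on the log2 scale. Of 19 genes of collagen biosynthesis 16 were tested, 8 were higher and 1 lower (median 0.58). The lysyl oxidase Loxl2 rose by 2.20 ± 0.33, the peroxidase Pxdn, which forms the sulfilimine crosslinks of collagen IV, by 1.37 ± 0.25, the collagen chaperone Serpinh1 by 1.26 ± 0.22 and the galactosyltransferase Colgalt1 by 1.24 ± 0.16. The prolyl 3-hydroxylase gene P3h2 fell by 0.67 on the log2 scale. Of 12 receptor genes 9 were tested and 6 were higher (median 0.73), among them the collagen receptors Ddr2 (1.74 ± 0.28) and Ddr1 (0.77 ± 0.15) and the integrin chains Itga3 (1.20 ± 0.20) and Itga1 (0.73 ± 0.13).

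ABTAA treatment gave no called member against IgG. In UUO kidneys, in CL kidneys and for the difference of the UUO responses, 0 of 10 members and 0% of the 9579 genes passed edgeR's quasi-likelihood test, 0 members had an unadjusted p under 0.05, and DESeq2 and edgeR's exact test, the latter not run for the difference, called no member either. Col4a1 in UUO kidneys had a lowest, median and highest level of 178, 233 and 311 CPM with ABTAA and 219, 297 and 344 CPM with IgG, and 5 of the 7 ABTAA libraries lay within the IgG range. The UUO response of Lamc1 was 0.91 ± 0.20 with IgG and 0.48 ± 0.20 with ABTAA, and the difference did not pass the test. The numbered subset that gave 0.70 with ABTAA holds no IgG library.

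In the Veptp arm 1 member was higher in UUO than in CL kidneys of Veptp iECKO mice, against 4.47% of genes, and 2 were lower, against 3.47% (without TMM 1 and 1 members, and 613 and 242 genes in place of 533 and 414). Col4a1 rose from 97.2, 124 and 160 CPM (lowest, median and highest) to 140, 244 and 348 CPM, with 7 of 8 UUO libraries above the CL range (0.93 ± 0.22, adjusted p = 0.00605). Col4a3 fell from 224, 489 and 619 CPM to 104, 205 and 230 CPM (-1.23 ± 0.26, adjusted p = 0.0023) and Col4a4 from 54.9, 198 and 218 CPM to 72.6, 90.8 and 117 CPM (-0.83 ± 0.24, adjusted p = 0.0314). Col4a2 was at 0.72 ± 0.25 (adjusted p = 0.0718) and Nid1 at 0.22 ± 0.36 (adjusted p = 0.819). With the number in split names as a block, in 16 libraries, both were called, at 1.28 (adjusted p = 2.27e-05) and 1.4 (adjusted p = 0.000117), while Nid1 was at -0.76 in plain names alone. Col4a2 was also called by DESeq2 (0.75, adjusted p = 0.0482) and the exact test (0.74, adjusted p = 0.0477). Without CL replicate 2, the library with raised Havcr1, the values were 0.99 for Col4a1, -1.37 for Col4a3, -1.01 for Col4a4 and 0.65 for Nid1, and Col4a5 was called at -0.97 (adjusted p = 0.0433). The call of Col4a4 ended without any one of Veptp iECKO CL replicates 3 to 6 or UUO replicates 2, 5 and 7 (adjusted p = 0.0525 to 0.0822), and also without TMM (-0.77, adjusted p = 0.172), with thinned counts (-0.64, adjusted p = 0.193) and in plain names alone (-0.03, adjusted p = 0.994), where that of Col4a3 ended too (-0.70, adjusted p = 0.699), and that of Col4a2 was gained without Veptp WT CL replicate 3 (adjusted p = 0.0494).

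The form of library name changed this count. With name form in the model 6 members and 2561 of 11916 genes were called in Veptp iECKO mice, among split names 6 members and 2651 of 12556 genes, and among plain names, where the CL group had 2 libraries, 0 members and 0 of 7778 genes. Numbers 3, 4, 7 and 8 in these names carry opposite genotypes in the CL and the UUO kidney, and without those 8 libraries 0 members and 108 of 11034 genes were called in Veptp iECKO, and 4 members and 815 genes in Veptp WT mice. In Veptp iECKO Col4a1 was then at 0.94 (adjusted p = 0.136), Col4a3 at -1.12 (adjusted p = 0.103) and Col4a4 at -0.72 (adjusted p = 0.356), and in Veptp WT Nid1 was at 1.29 (adjusted p = 0.053).

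Between Veptp iECKO and Veptp WT mice, 0 of 10 members and 0% of the 11916 genes passed edgeR's quasi-likelihood test in UUO kidneys, in CL kidneys or for the difference of the responses. DESeq2 and the exact test, which was not run for the difference, called no member. In UUO kidneys 4 members and 426 of 11916 genes had an unadjusted p under 0.05 in edgeR's test. The members, each at an adjusted p of 1, were Col4a1 (-0.52, 95% interval -0.92 to -0.12), Col4a2 (-0.66, -1.12 to -0.21), Lamc1 (-0.38, -0.76 to -0.01) and Nid1 (-0.77, -1.42 to -0.12). Within plain and split names Col4a1 was at -0.66 and -0.45 and Nid1 at -1.33 and -0.30. With the number as a block, Col4a1 was at -0.29, Col4a2 at -0.01, Lamc1 at -0.20 and Nid1, with the other sign, at 0.18, none called. The 10 fibroblast markers had a summed level of 428 to 1246 CPM in Veptp iECKO and 1186 to 2146 CPM in Veptp WT UUO kidneys, and the 11 endothelial markers of 230 to 430 and 341 to 599 CPM.

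The Pdgfb arm showed called differences between genotypes. In UUO kidneys 7 of 10 members were lower in the libraries labelled Pdgfb iKO than in Pdgfb WT, against 6.58% of genes, and 0 were higher, against 12%. The share of counts on Gm42418 and AY036118, which overlap ribosomal RNA repeats, was 7.67% to 10.7% in the iKO and 5.41% to 7.34% in the WT UUO libraries, without overlap, and its part in the members' differences was not tested. In CL kidneys these shares overlapped, at 6.73% to 10.6% and 6.22% to 9.43%. Col4a1, Col4a2, Lama5, Lamb1, Lamb2, Lamc1 and Nid1 were the 7, and Col4a3, Col4a4 and Col4a5 did not pass the test. In CL kidneys 0 members and 0% of genes passed edgeR's quasi-likelihood test, neither DESeq2 nor the exact test called a member, and 0 members had an unadjusted p under 0.05 in edgeR's test.

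Col4a1 was at 192, 158, 155 and 207 CPM in the 4 Pdgfb iKO UUO libraries, and the 4 Pdgfb WT UUO libraries held 297, 311, 278 and 364 CPM, without overlap (-0.81 ± 0.14, adjusted p = 0.000158). Col4a2 was at 92.8, 66.5, 88.4 and 90.4 CPM against 134, 140, 139 and 190 CPM, also without overlap (-0.84 ± 0.17, adjusted p = 0.000761). Lama5, the laminin α5 chain, had 56.3, 48.5, 53.2 and 39.3 CPM against 86.8, 112, 88.3 and 93.4 CPM, again apart (-0.98 ± 0.18, adjusted p = 3e-04). In CL kidneys Lama5 had 40.1, 70.9, 50.2 and 44.8 CPM in iKO and 36.2, 58.9, 52.0 and 56.0 CPM in WT, so that in iKO mice its UUO and CL libraries overlapped. Nid1 had 39.8, 31.6, 36.9 and 51.1 CPM in iKO and 67.8, 60.9, 71.1 and 101 CPM in WT UUO kidneys (-0.89 ± 0.20, adjusted p = 0.00248). Lamc1 had 43.1, 20.3, 32.6 and 44.8 CPM against 45.0, 69.9, 65.1 and 63.2 CPM (-0.82 ± 0.20, adjusted p = 0.00547). Neither gene overlapped between the genotypes, though the nearest Lamc1 libraries, at 44.8 and 45.0 CPM, nearly met.

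The β chains overlapped between the genotypes. Lamb1 had 106, 193, 173 and 152 CPM in iKO and 176, 238, 264 and 268 CPM in WT UUO kidneys (-0.57 ± 0.16, adjusted p = 0.0124). Lamb2 had 43.1, 19.2, 38.6 and 31.5 CPM against 41.8, 57.9, 45.6 and 52.5 CPM (-0.63 ± 0.22, adjusted p = 0.0487). The call of Lamb2 ended without any one of 9 libraries: Pdgfb WT CL replicate 4, iKO CL replicates 2, 3 and 4, WT UUO replicates 2, 3 and 4, and iKO UUO replicates 2 and 4, with values from -0.43 to -0.67 and adjusted p up to 0.224. It also ended under DESeq2 (-0.63, adjusted p = 0.0879) and with thinned counts (-0.64, adjusted p = 0.154), which ended the call of Lamc1 too (-0.76, adjusted p = 0.0814), at differences close to those given above.

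The α3α4α5 genes were not among the 7. Col4a3 was at 242, 168, 215 and 95.9 CPM in Pdgfb iKO and 92.5, 121, 163 and 115 CPM in Pdgfb WT UUO kidneys, with 3 iKO libraries above the WT range (0.51 ± 0.21, adjusted p = 0.0937, 95% interval 0.08 to 0.94). It was called at 0.68 (adjusted p = 0.0337) without WT UUO replicate 3 and at 0.74 (adjusted p = 0.00503) without iKO UUO replicate 4, and with all libraries at 0.48 (adjusted p = 0.0321) without the filter on low counts. Col4a4 was at 89.5, 67.6, 81.6 and 65.3 CPM against 48.1, 57.3, 79.1 and 59.3 CPM (0.27 ± 0.16, adjusted p = 0.265, and -0.01 without TMM). Col4a5 was at 3.31, 31.6, 17.2 and 21.2 CPM against 21.5, 21.5, 32.0 and 19.4 CPM, with overlap (-0.23 ± 0.27, adjusted p = 0.606). Without TMM the median over all genes in this comparison moved from -0.021 to -0.292 and the split of called genes from 1315 higher and 719 lower to 657 higher and 2500 lower, and the same 7 members were called, with Col4a1 at -1.09 and Lama5 at -1.25.

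**Figure D4:**
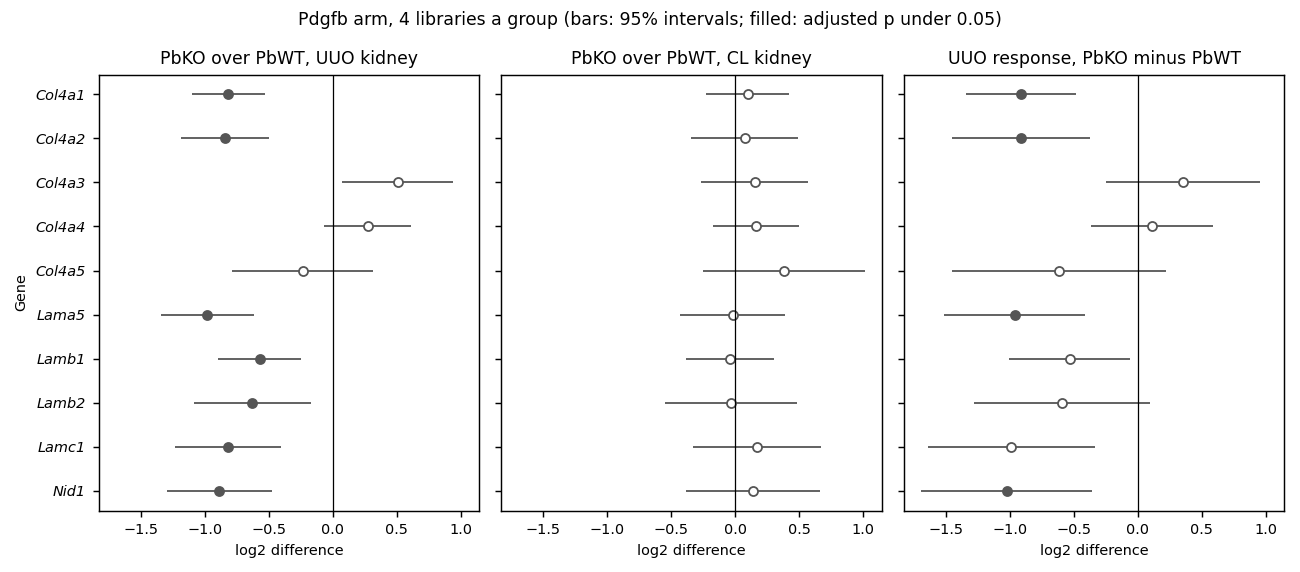
Log2 difference with its 95% interval for each member between PbKO (Pdgfb iKO) and PbWT (Pdgfb WT) in UUO kidneys, in CL kidneys, and for the UUO response of PbKO minus that of PbWT, filled where adjusted p was under 0.05. In UUO kidneys 7 members lay between -0.98 (Lama5) and -0.57 (Lamb1) and Col4a3 at 0.51, no member was called in CL kidneys, and 4 were called for the difference.

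In Pdgfb iKO mice 2 members were higher in UUO than in CL kidneys, against 3.94% of genes, and 2 were lower, against 2.42% (without TMM 2 and 1 members, and 567 and 152 genes in place of 430 and 264). Col4a1 (0.85 ± 0.15) and Col4a2 (0.71 ± 0.19) were higher in every UUO than in every CL library, and Col4a3 (-0.85 ± 0.21) and Col4a4 (-0.63 ± 0.17) were lower in every one. Lama5 (-0.04 ± 0.20), Lamb1 (0.15 ± 0.17), Lamc1 (0.09 ± 0.24) and Nid1 (0.46 ± 0.24) did not pass the test. Xist stood with Y-linked genes in all UUO but no CL libraries of these mice, so that this trait and obstruction cannot be told apart. The calls rested on few libraries. That of Col4a2 ended without CL replicate 1, 3 or 4 or UUO replicate 3 or 4 (adjusted p = 0.0621 to 0.0861). That of Col4a3 ended without CL replicate 4 or UUO replicate 2 or 4 (adjusted p = 0.0518 to 0.0642). That of Col4a4 ended without CL replicate 3 or 4 or UUO replicate 2 or 4 (adjusted p = 0.08 to 0.103) or without TMM (-0.55, adjusted p = 0.0564). With thinned counts those of Col4a2 (0.56, adjusted p = 0.228) and Col4a4 (-0.62, adjusted p = 0.0576) ended. The count of members called fell from 4 to 1 without CL replicate 4 or UUO replicate 4. It fell to 2 without CL replicate 3 or UUO replicate 2. The share of all genes called in those fits is not given here, so these falls are not read as particular to the members.

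The difference of the UUO responses, Pdgfb iKO minus Pdgfb WT, was called for 4 members, all lower, against 1.9% of genes, and for none higher, against 6.66%. Without TMM the median over the genes tested was -0.294 in place of 0, and the split turned from 728 genes higher and 207 lower to 312 and 668, with 6 members lower. It was -0.91 ± 0.21 for Col4a1 (adjusted p = 0.0065), -0.91 ± 0.26 for Col4a2 (adjusted p = 0.0294), -0.96 ± 0.27 for Lama5 (adjusted p = 0.0247) and -1.02 ± 0.32 for Nid1 (adjusted p = 0.0484). Col4a3 was at 0.36 ± 0.29 and Col4a4 at 0.11 ± 0.23 (-0.18 without TMM), neither called. Xist stood with Y-linked genes in all iKO UUO but no iKO CL libraries, and the WT CL group includes sham-operated kidneys. The part of either in these differences was not tested. Col4a1 kept its call whichever library was left out and lost it with thinned counts (-0.72, adjusted p = 0.0774), as did Lama5 (-0.88, adjusted p = 0.174). That of Col4a2 ended without WT CL replicate 1 or 3, iKO CL replicate 2 or 4, WT UUO replicate 4 or iKO UUO replicate 2 (adjusted p = 0.0572 to 0.0746), and that of Lama5 without iKO CL replicate 2, WT UUO replicate 2 or iKO UUO replicate 4 (adjusted p = 0.0561 to 0.0644). That of Nid1 ended under DESeq2 (-1.03, adjusted p = 0.0645) and without any one of 11 libraries, WT CL replicates 1 to 3, iKO CL replicates 3 and 4, WT UUO replicates 1, 3 and 4 and iKO UUO replicates 1 to 3 (adjusted p = 0.0546 to 0.218). Lamc1 missed the threshold (-0.99 ± 0.32, adjusted p = 0.0526) and passed it without WT CL replicate 1, WT UUO replicate 1 or iKO UUO replicate 1 or 4 (adjusted p = 0.0205 to 0.0478). The count fell to 2 without WT CL replicate 3, iKO CL replicate 2 or 4, WT UUO replicate 4 or iKO UUO replicate 2. For these fits the share of all genes called is not given here, so the fall is not read as particular to the members.

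Other lists were read in the same UUO kidneys, where 6.58% of all genes tested were lower and 12% higher in Pdgfb iKO than in Pdgfb WT. Of 22 other basement membrane genes tested 7 were lower and 0 higher in Pdgfb iKO, with Col15a1 at -1.01 ± 0.23 and Sparc at -0.80 ± 0.20, and of 18 collagen biosynthesis genes 5 were lower and 1 higher, with Plod3, a lysyl hydroxylase, at -0.73 ± 0.19 and P4hb, a subunit of prolyl 4-hydroxylase, at 0.44 ± 0.13. Of 9 receptor genes 5 were lower, with Ddr2 at -1.36 ± 0.26 and Itga1 at -0.69 ± 0.14. Of the fibroblast markers 7 of 8 were lower (summed level 470 to 1051 CPM in iKO and 1310 to 1741 CPM in WT), of the endothelial markers 4 of 11 (236 to 366 and 350 to 456 CPM) and of the macrophage markers 3 of 7 (355 to 415 and 469 to 702 CPM). Proximal tubule markers were higher in 8 of 9 (8595 to 22976 and 3667 to 4964 CPM) and distal nephron markers in 6 of 8 (3829 to 5471 and 2259 to 2630 CPM). Podocyte markers were called in 0 of 11 by edgeR's quasi-likelihood test, with 2 at an unadjusted p under 0.05 (309 to 371 and 342 to 432 CPM). The part of these shifts in the members' levels was not tested.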

How the data were processed

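Whole-kidney RNA was sequenced with a protocol based on Smart-seq3, reads of 4 wells were merged for each library, and the authors deposited raw read counts per gene, which sum to 172827 to 2341800 a library (median 757897). The submitters' processing notes name STAR 2.7.3a, UMI-tools 1.1.4, featureCounts of Subread 1.4.6-p5 and mm10. For the annotation and the strand setting, the sources used here say nothing. No column lacked a sample. Groups were taken from the labels, and replicates were numbered in accession order.

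The counts as deposited were tested with edgeR 4.0.16 (R 4.3.3), with filterByExpr by group, TMM scaling and glmQLFit over the 4 groups of an arm, and p was adjusted by Benjamini-Hochberg over all genes tested (9579 in the ABTAA, 11916 in the Veptp and 10923 in the Pdgfb arm). The standard error is the absolute log2 fold change over the square root of F, and intervals are at 95%. Levels are CPM with TMM factors over all 75 libraries. Log2 ratios of counts within a library, with 0.5 added to each count, were compared by exact 2-sided permutation tests (numpy 2.4.6), adjusted over 27 comparisons. The scripts were tested on simulated data. Alternatives were no TMM, no filter, DESeq2 1.42.0, edgeR's exact test (the test the study used), counts thinned to the lowest total, name form in the model or each form alone, a replicate block, leaving out each library and, chosen after the data were seen, leaving out libraries with Xist and Y-linked genes.

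Gene positions are from GENCODE M21 (mm10) and promoter windows from RefSeq (GRCm38.p6). The members and lists were chosen with earlier results of these data known. All 10 members are named. Of the 3 lists of related genes the text names up to 4 with the lowest adjusted p in IgG UUO against CL, up to 2 with the lowest adjusted p in Pdgfb iKO against WT in UUO, and up to 3 that fell in IgG UUO against CL, and for Col4a1, Col4a3 and Lamb2 the 5 genes with the highest Pearson r. A gene that this rule names is not reported here. Split library names (with "_") carry numbers. In the ABTAA arm the CL and UUO libraries numbered 9, 11 and 12 were taken to pair samples, which no label states. Their deviations from their group means over genes correlated by 0.392, 0.216 and 0.162. The mean for different numbers was -0.126. Deviations from a group mean sum to 0, so this value follows from those for the same numbers and is no separate support. In that fit of 6 libraries 8 members were called with the block and 7 without it.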

Additional observations from a re-analysis of the deposited data

Results flagged for a closer look

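In 9 of the 120 combinations of member and group, 1 library stood apart from the others of its group by Dixon's criterion, which chance meets in about 1 of 20. In the Pdgfb arm, Col4a2 was high in WT UUO replicate 4 (190 CPM, next 140 CPM) and low in iKO UUO replicate 2 (66.5 CPM, next 88.4 CPM). In Veptp iECKO, Col4a3 was low in UUO replicate 2 (104 CPM from 20 counts), Col4a4 in CL replicate 2 (54.9 CPM from 13 counts), the library with raised Havcr1, and Lama5 in CL replicate 1 (36.0 CPM from 10 counts). With ABTAA, Col4a4 was low in UUO replicate 6 (55.8 CPM) and Lama5 in CL replicate 4 (28.7 CPM from 13 counts). With IgG, Col4a5 was low in UUO replicate 3 (5.69 CPM from 2 counts) and Lamb2 in UUO replicate 8 (18.3 CPM from 15 counts).

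The UUO response differed between Pdgfb iKO and Pdgfb WT mice, by the interaction term of edgeR's quasi-likelihood test, for Col4a1 (-0.913 on the log2 scale), Col4a2 (-0.912), Lama5 (-0.959) and Nid1 (-1.025). Summed fibroblast markers were lower and summed proximal tubule markers higher in the iKO UUO libraries, and their part in these differences was not tested.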

How the results depend on the processing

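No result changed sign past its test under any alternative. Of the alternative values for single members, 4856 kept their side of the threshold, 109 lost and 35 gained a call. Counts of called members stayed within 1.5 times the value given except as follows. In ABTAA-treated mice 3 members in place of 6 were called among plain library names, where 1031 of 8898 genes were called in place of 2407 of 9579. In Veptp iECKO mice the count of 3 became 6 with name form in the model, 0 in plain and 6 in split names alone, and 0 without the libraries numbered 3, 4, 7 and 8, where Veptp WT had 4 in place of 7. With counts thinned to the lowest total, the Pdgfb iKO count was 2 in place of 4 (309 of 7500 genes in place of 694 of 10923) and the count for the difference of the responses 2 in place of 4 (492 and 935 genes). Leaving out 1 library gave 1 to 4 members in Pdgfb iKO and 2 to 4 for the difference, without the share of all genes called being given here.

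Numbers 1 to 8 in the Veptp arm marked no shared batch by the labels. Numbers 1, 2, 5 and 6, with the same genotype in both kidneys, correlated by 0.179, 0.379, 0.0485 and 0.0936. Numbers 3, 4, 7 and 8, with opposite genotypes, correlated by 0.416, 0.273, 0.112 and 0.271. The mean of -0.0316 between different numbers follows from these values, since deviations from a group mean sum to 0. Whether numbers mark mice and whether each genotype label is right was not tested. With these numbers as a replicate block, in 16 libraries, 7 members and 3317 of 12556 genes were called in Veptp iECKO and 6 members and 2885 genes in Veptp WT. The same 16 libraries without the block gave 6 members and 2651 genes in Veptp iECKO and 8 members and 3219 genes in Veptp WT. All 29 libraries without it gave 3 members and 947 of 11916 genes in Veptp iECKO. In the ABTAA arm the replicate block over the 6 libraries numbered 9, 11 and 12 gave 8 members and 2840 of 9056 genes with ABTAA, against 7 members and 2205 genes in the same libraries without it. Lamc1 was called with the block alone (0.70, adjusted p = 0.0346), and Lamb2 with and without it (0.83 and 0.85). The Pdgfb arm carries no shared numbers.

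Within 1 form of name, where fewer libraries allow no small p, the exact permutation test of the log2 Col4a1 to Col4a3 ratio, UUO minus CL, missed the threshold: 2.69 (IgG), 2.05 (ABTAA), 2.32 (Veptp WT) and 1.4 (Veptp iECKO) in plain names and 2.94, 2.81, 2.25 and 2.43 in split names, lowest adjusted p = 0.154. The Lamb1 to Lamb2 ratio in Veptp WT was then 0.619 and 0.466 and ran from 0.466 to 0.629 with 1 library left out (lowest exact permutation adjusted p = 0.0252). Depth limits members such as Col4a5, with 1 count in its poorest library.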
